A study of Homo sapiens with 6 samples.

Results

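The expression of 60 ribosome biogenesis factors, proteins that assemble ribosomes without being part of them, was followed in BT-549 cells, a cell line established from a triple-negative breast cancer (TNBC), after silencing of the long noncoding RNA NEAT1. The 60 genes were taken as a fixed list of nucleolar assembly factors, without ribosomal proteins, chosen with earlier results of these data known. Each was found by its symbol in the deposited table of 25545 genes. Cells titled BT-549/tet-NEAT1CsiRNA received a control siRNA (CsiRNA) and cells titled BT-549/tet-NEAT1siRNA an siRNA against NEAT1 (NEAT1siRNA), with 3 libraries in each group and RNA taken at 48 h. What tet stands for in these titles is not explained in the labels. All 6 libraries came from the same line in medium with fetal bovine serum and insulin, and a single NEAT1 siRNA was used, so an effect of this siRNA on other transcripts cannot be told apart from that of NEAT1 loss. The 3 libraries of a group came from triplicate cultures, and p-values measure the spread between these libraries only. In such bulk RNA, fewer cells of a type and less RNA per cell cannot be told apart.

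Ribosomes are built in the nucleolus, where RNA polymerase I transcribes a long precursor rRNA that a large set of assembly factors folds, modifies and cleaves into the RNAs of the small and the large subunit. Small nucleolar ribonucleoproteins (snoRNPs) guide the chemical modification of the precursor, the small-subunit processome forms on its leading end, and a succession of helicases, GTPases and methyltransferases then matures each subunit. Genes for these factors are well known targets of the transcription factor MYC and are highly expressed in proliferating cancer cells.

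Levels are in TPM, a unit that accounts for the length of a transcript and the total of its library. Values of a group are always given in the order of replicates 1, 2 and 3. NEAT1 went from 13.4, 7.68 and 10.8 TPM with CsiRNA to 4.36, 2.96 and 2.73 TPM with NEAT1siRNA, so that the silenced mean was 31.5% of the control mean. Of 13 cell type markers 5 were tested and 2 were called lower, the mesenchymal genes FN1 (log2 fold change -0.47, limma adjusted p = 0.00116) and CDH2 (-0.34, limma adjusted p = 0.0186), and their part in the fall of the factors was not tested. The mesenchymal markers VIM, between 859 and 1112 TPM, and ZEB1 (log2 fold change -0.023) were not called. ERBB2 (HER2) lay between 5.76 and 6.36 TPM and was not called either. ESR1 was listed at 0 in all 6 libraries, and PGR and EPCAM stayed under 0.05 TPM. The leukocyte gene PTPRC and the endothelial gene PECAM1 stayed under 0.1 TPM. The epithelial and basal genes CDH1, KRT5 and KRT14 were not tested. Their means were 0.0632, 0.0630 and 0.0115 TPM with CsiRNA and 0.124, 0.189 and 0.0420 TPM with NEAT1siRNA. Reads recovered from the tables summed to between 15789160 and 20341551 per library. A set of 4 short RNAs (RN7SK, RN7SL1, RN7SL2 and RPPH1) made up 64.4% to 68.1% of each library in TPM, which is not a share of reads. Their mean normalized counts over the 6 libraries were 383024, 29964, 39384 and 36236. Of these RNAs 2 were called higher in BT-549/NEAT1siRNA cells, RN7SL2 (log2 fold change 0.27, limma adjusted p = 0.00518) and RN7SL1 (0.22, limma adjusted p = 0.0467). Expression relative to the group mean moved with the GC content of transcripts, with a Spearman rho across 10423 genes from -0.73 in NEAT1siRNA replicate 2 to 0.68 in NEAT1siRNA replicate 1.

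The start regions of the most clearly lowered factors are shown first, because MYC and its relatives recognise the canonical E-box (CACGTG, which reads the same on both strands). Windows were taken from RefSeq (GRCh38.p14) from 250 bases before to 50 after the annotated start, and the capitals mark the E-box. Of the 4 called members with the lowest adjusted p, NOL6, UTP20 and MRTO4 had an entry and RRP12 did not. The window of NOL6 is at chr9:33473875-33474174 on the minus strand, that of UTP20 at chr12:101279855-101280154 on the plus strand and that of MRTO4 at chr1:19251555-19251854 on the plus strand.
NOL6: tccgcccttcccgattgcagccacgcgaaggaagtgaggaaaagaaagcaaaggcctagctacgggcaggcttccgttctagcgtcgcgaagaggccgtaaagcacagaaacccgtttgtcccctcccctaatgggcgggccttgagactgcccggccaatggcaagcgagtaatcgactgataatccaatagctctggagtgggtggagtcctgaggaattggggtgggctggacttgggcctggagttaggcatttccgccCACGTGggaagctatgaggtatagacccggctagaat
UTP20: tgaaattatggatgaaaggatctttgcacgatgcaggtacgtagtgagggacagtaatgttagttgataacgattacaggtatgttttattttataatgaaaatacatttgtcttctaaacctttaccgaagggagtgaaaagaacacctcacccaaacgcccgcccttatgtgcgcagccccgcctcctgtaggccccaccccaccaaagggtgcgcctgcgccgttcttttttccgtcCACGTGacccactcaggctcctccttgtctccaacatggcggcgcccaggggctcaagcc
MRTO4: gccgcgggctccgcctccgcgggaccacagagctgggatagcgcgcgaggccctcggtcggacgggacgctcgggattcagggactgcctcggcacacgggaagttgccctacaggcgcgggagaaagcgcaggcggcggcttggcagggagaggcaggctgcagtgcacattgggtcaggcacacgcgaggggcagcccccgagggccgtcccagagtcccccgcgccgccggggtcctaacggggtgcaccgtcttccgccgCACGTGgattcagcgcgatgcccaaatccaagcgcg
The E-box began 13 bases after the start base in NOL6, 10 before it in UTP20 and 14 after it in MRTO4.

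A canonical E-box was common in the start regions of ribosome biogenesis factors and lay close to the start. Of the 50 members with a RefSeq window, taking the first start listed for each gene, 20 (40.0%) held at least 1. The share was 27.0% of 74 other genes of the pathway, 4.76% of 63 cytoplasmic ribosomal protein genes, 10.7% of 8566 genes tested and 7.43% of all 27305 genes with a window. The median GC content of the windows was 63.8% for the members and 65.3% for the genes tested. Of 22 matches in the members, 19 (86.4%) began within 50 bases of the start, against 403 of 1045 (38.6%) in the genes tested. In the 25 bases that begin at the start lay 12 of the 22 matches, among them those of PES1, RCL1, WDR43, NOC3L and FBL. These matches are a description of the letters in each window and do not show binding.

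**Figure D1:**
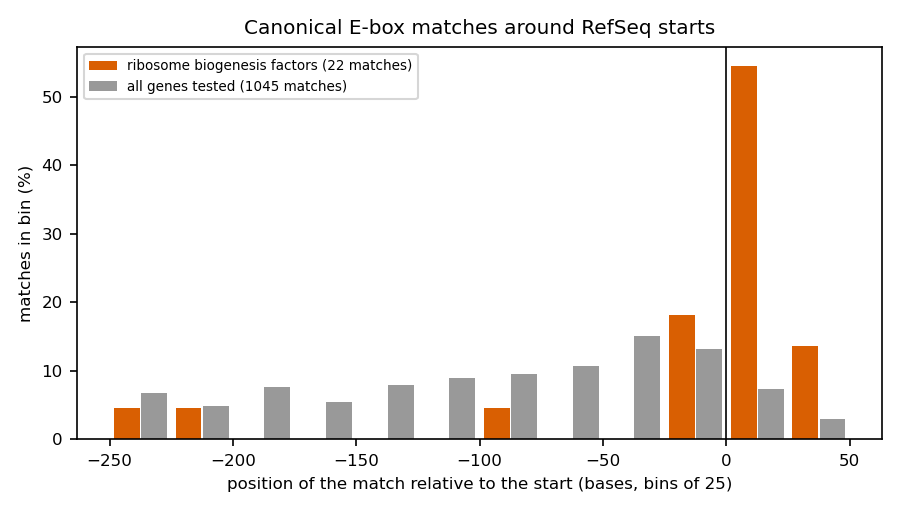
Positions of canonical E-box matches in windows around RefSeq starts, as the percentage of all matches (y axis) in bins of 25 bases (x axis), for the ribosome biogenesis factors (22 matches) and for all genes tested (1045 matches). The bin just after the start holds 54.5% of the matches in the factors and 7.37% of those in the genes tested.

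To ask how the factors responded to NEAT1 silencing, log2(TPM + 1) values were compared with limma across the 10721 genes with a mean of at least 1 TPM, and a gene was called at a Benjamini-Hochberg adjusted p under 0.05. Of the 60 factors, 58 passed the filter. All 58 had a lower mean in BT-549/NEAT1siRNA cells, 31 of them were called lower and 0 were called higher, with 0 higher also at an unadjusted p under 0.05 and on recovered reads with voom. The share called lower was 53.4% of the tested factors, against 8.98% of all genes tested. Fold changes of the factors had a median of -0.29 (log2), and those of all genes a median of -0.044, with 60.7% of them negative. Each silenced library lay below each control library for 47 of the 58 factors (81.0%), against 19.3% of all genes tested.
Over all genes, 963 were called lower and 535 higher, a split that voom on recovered reads turned into 1242 lower and 1225 higher, while it called 33 factors lower and 0 higher. The number of factors called depended on single libraries. It was 12 without CsiRNA replicate 1, where 3.57% of all genes were called lower, and 14 without NEAT1siRNA replicate 3, where the share was 3.96%. With no filter on TPM, 8 of 60 factors and 1.42% of all genes were called lower.

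The shift was present in each silenced library. Relative to the CsiRNA mean, the median factor was lower by a log2 value of 0.25 in NEAT1siRNA replicate 1, 0.22 in replicate 2 and 0.35 in replicate 3. The CsiRNA medians ran from -0.070 to 0.067. All genes tested had medians of -0.051, 0.020 and -0.11 in the NEAT1siRNA libraries. Below the CsiRNA mean were 58, 54 and 58 of the 58 factors in NEAT1siRNA replicates 1, 2 and 3, and 3, 29 and 51 in CsiRNA replicates 1, 2 and 3. CsiRNA replicate 3 thus lay lower than the other controls on the TPM scale, for the factors as for all genes. The summed level of the 60 factors was 3209, 3119 and 2976 TPM in the CsiRNA libraries and 2686, 2840 and 2569 TPM in the NEAT1siRNA libraries, and the groups did not overlap. With the 4 short RNAs set aside, the factors took 0.901%, 0.906% and 0.921% of the remaining TPM in CsiRNA libraries. In NEAT1siRNA libraries they took 0.812%, 0.809% and 0.805%. By this share CsiRNA replicate 3 was the highest control rather than the lowest.

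**Figure D2:**
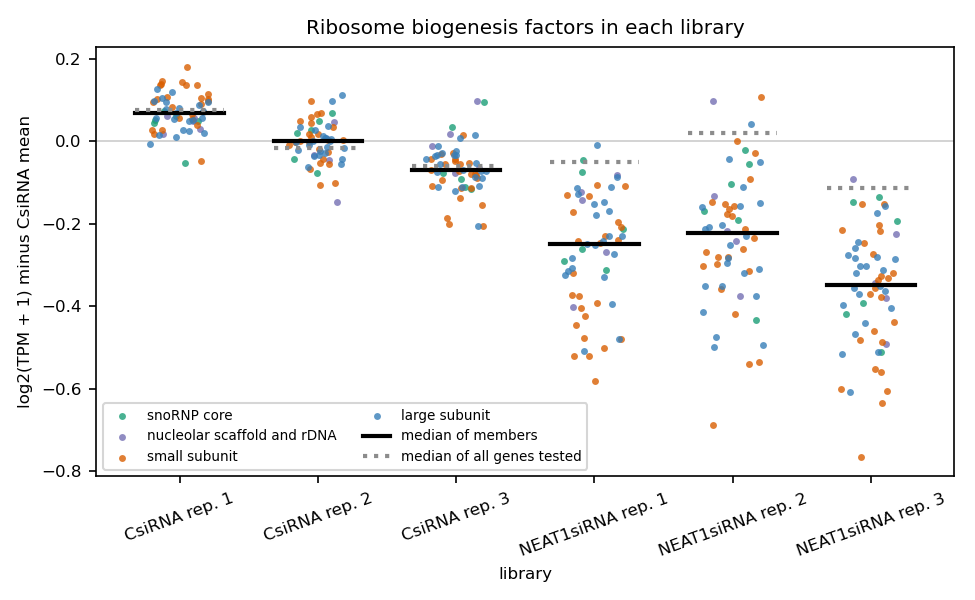
Each point is 1 of the 58 tested factors, plotted as its log2(TPM + 1) in a library (x axis) minus its mean over the CsiRNA libraries (y axis) and coloured by role; solid bars are the medians of the factors and dotted bars those of all genes tested. In the NEAT1siRNA libraries the factor medians lie at -0.25, -0.22 and -0.35, under the medians of all genes at -0.051, 0.020 and -0.11.

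The small-subunit factors held the members with the largest falls. Of 25, 24 were tested and 15 were called lower, with a median log2 fold change of -0.32. The count was 6 without CsiRNA replicate 1 and 7 without NEAT1siRNA replicate 3. Among all genes tested the share called lower was 8.98% with all 6 libraries, and 3.57% and 3.96% without these libraries in turn. UTP20, a very large scaffold protein of the small-subunit processome, had 17.7, 15.3 and 15.3 TPM with CsiRNA and 10.4, 10.7 and 9.04 TPM with NEAT1siRNA. The NEAT1siRNA mean of UTP20 was 62.5% of the CsiRNA mean, a log2 change of -0.63 with a standard error of 0.097 and a limma adjusted p of 7.36e-05. NOL6, another core protein of the processome, went from 26.2, 23.4 and 23.5 TPM to 16.6, 14.7 and 15.7 TPM, a log2 change of -0.60 with a standard error of 0.093 and a limma adjusted p of 7.30e-05. For both genes every silenced library lay well below every control library. RRP12, a helical-repeat protein needed for maturation and export of pre-ribosomal subunits, went from 15.8, 14.1 and 13.8 TPM to 9.83, 9.71 and 9.20 TPM, a log2 change of -0.55 at a limma adjusted p of 0.000192. In GRCh38, UTP20 lies on chromosome 12 from 101280105 to 101386618 (plus strand), NOL6 on chromosome 9 from 33461353 to 33473930 (minus strand) and RRP12 on chromosome 10 from 97356358 to 97426076 (minus strand).

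The UTP-A subcomplex binds the precursor rRNA first and is linked to its transcription. Its 5 members on the list were all called lower, a group put together after the values were seen, where 8.98% of all genes tested were called lower. HEATR1, its largest subunit, had 41.4, 35.7 and 32.6 TPM with CsiRNA and 25.4, 27.0 and 23.1 TPM with NEAT1siRNA (log2 fold change -0.52, limma adjusted p = 0.000795). UTP15 had 17.9, 16.2 and 14.6 TPM with CsiRNA and 11.3, 12.9 and 10.7 TPM with NEAT1siRNA (log2 fold change -0.44, limma adjusted p = 0.00334). The groups did not overlap for either gene, although the control libraries of HEATR1 spread widely. UTP4 lay between 35.4 and 39.0 TPM in the CsiRNA libraries and between 26.6 and 31.9 TPM in the NEAT1siRNA libraries. WDR75 lay between 26.2 and 29.1 TPM in the former and between 20.5 and 24.5 TPM in the latter. These subunits too were lower in every silenced library than in any control, as were 19.3% of all genes tested. UTP4, WDR75 and WDR43 had log2 fold changes of -0.37, -0.33 and -0.29, with adjusted p-values of 0.00947, 0.0217 and 0.0425 from limma. The remaining subunit of the subcomplex, NOL11, was not on the list of 60 and was not called. The number of its subunits called fell to 2 without CsiRNA replicate 1 and without NEAT1siRNA replicate 3, and to 3 without CsiRNA replicate 2 and without NEAT1siRNA replicate 1. The shares of all genes called lower in these fits were 3.57%, 3.96%, 8.28% and 8.69%. With no filter on TPM the number of subunits called was 0, where 1.42% of all genes were called lower.

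Further small-subunit factors were also called lower. RCL1, a cyclase-like protein of the processome, went from 17.5, 16.03 and 15.3 TPM to 11.7, 13.3 and 10.7 TPM (log2 fold change -0.42, limma adjusted p = 0.00416). The helicase DDX47 went from 45.0, 42.8 and 35.3 TPM to 29.0, 33.4 and 29.9 TPM (log2 fold change -0.40, limma adjusted p = 0.00746). In both, NEAT1siRNA replicate 2 was the silenced library closest to the controls. BYSL, TSR1, NAT10 (an RNA acetyltransferase that acts on small-subunit rRNA), RRP9 (a protein specific to the U3 snoRNP) and IMP3 had log2 fold changes between -0.36 and -0.30. TSR1, a GTPase-like factor of late small-subunit maturation, lay between 46.6 and 52.3 TPM with CsiRNA and between 37.0 and 41.0 TPM with NEAT1siRNA. BYSL (bystin) lay between 13.0 and 15.2 TPM against 10.0 and 11.3 TPM, and NAT10 between 12.5 and 14.96 TPM against 9.39 and 11.3 TPM. Neither group pair overlapped. The adjusted p-values of these 5 genes ran from 0.0116 for BYSL to 0.0398 for IMP3. Within the MPP10 complex IMP3 alone was called, while MPHOSPH10 and IMP4 had log2 fold changes of -0.21 and -0.16 with limma adjusted p-values of 0.127 and 0.251. Yet for all 3 genes the silenced values lay below the controls, as they did for 19.3% of all genes tested. NOP14, LTV1, NOB1 (the endonuclease of the last small-subunit cleavage), NOC4L, UTP18, DDX10 and DDX52 were also not called, with log2 fold changes from -0.27 to -0.094. PWP2 was not tested, with 1.25, 1.09 and 0.935 TPM in CsiRNA libraries and 0.767, 0.837 and 0.546 TPM in NEAT1siRNA libraries, and its reads can be split with a near-identical copy on chromosome 21 (LOC102724159), so its level is uncertain.

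Large-subunit factors moved in the same direction. Of 24, 23 were tested and 11 were called lower, with a median log2 fold change of -0.26. The count was 4 without CsiRNA replicate 1, 7 without CsiRNA replicate 2 and 6 without NEAT1siRNA replicate 3. Among all genes tested the share called lower was 8.98% with all 6 libraries, and 3.57%, 8.28% and 3.96% without these libraries in turn. MRTO4, which holds the place of a stalk protein on the maturing large subunit, had 24.0, 21.9 and 21.1 TPM with CsiRNA and 15.7, 15.5 and 14.3 TPM with NEAT1siRNA. For MRTO4 limma gave a log2 change of -0.53, a standard error of 0.092 and an adjusted p of 0.000302. NIP7, a pre-rRNA processing factor, went from 31.7, 32.1 and 25.6 TPM to 20.5, 23.6 and 20.4 TPM (log2 fold change -0.45, limma adjusted p = 0.00341). The groups were well apart for MRTO4, while CsiRNA replicate 3 came near the silenced libraries for NIP7. NOP16 went from 38.7, 36.6 and 36.2 TPM to 29.5, 26.1 and 27.1 TPM (log2 fold change -0.42, limma adjusted p = 0.00241). NOP2, an rRNA cytosine methyltransferase, went from 40.2, 37.4 and 37.0 TPM to 30.2, 28.4 and 26.5 TPM (log2 fold change -0.42, limma adjusted p = 0.00266). For NOP16 and NOP2 the lowest control was above the highest silenced library by more than the range of the controls.

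The PeBoW complex, formed by PES1, BOP1 and WDR12, is needed to process the large-subunit rRNA. BOP1 went from 40.1, 35.2 and 34.8 TPM to 29.4, 28.0 and 27.4 TPM (log2 fold change -0.36, limma adjusted p = 0.00853). PES1 went from 35.0, 33.9 and 30.6 TPM to 29.1, 25.8 and 25.7 TPM (log2 fold change -0.29, limma adjusted p = 0.0359). WDR12 was not called, with 22.8, 24.3 and 20.8 TPM against 18.5, 20.3 and 17.3 TPM and an adjusted p of 0.0646 from limma, and its groups did not overlap either. NOC3L, WDR74, NOL9 (the RNA kinase that works with the endonuclease LAS1L), DDX27 and DDX56 were called lower with log2 fold changes from -0.36 to -0.27. WDR74 lay between 21.1 and 22.9 TPM with CsiRNA and between 15.6 and 17.9 TPM with NEAT1siRNA, and DDX27 between 23.9 and 25.6 TPM against 19.1 and 20.9 TPM. The controls of both genes lay close together and above each silenced library. LAS1L had a log2 change of -0.21 at a limma adjusted p of 0.123. RRS1, BRIX1, FTSJ3, EBNA1BP2, RRP1B, NOC2L, GNL3 (nucleostemin), GNL2, GRWD1 and DDX18 were not called, with log2 fold changes from -0.25 for RRS1 to -0.081 for DDX18. PPAN was not tested, at 0.914, 0.677 and 0.791 TPM with CsiRNA and 0.830, 0.512 and 0.825 TPM with NEAT1siRNA, and it overlaps the read-through gene PPAN-P2RY11, which is listed at 0, so its level is uncertain.

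**Figure D3:**
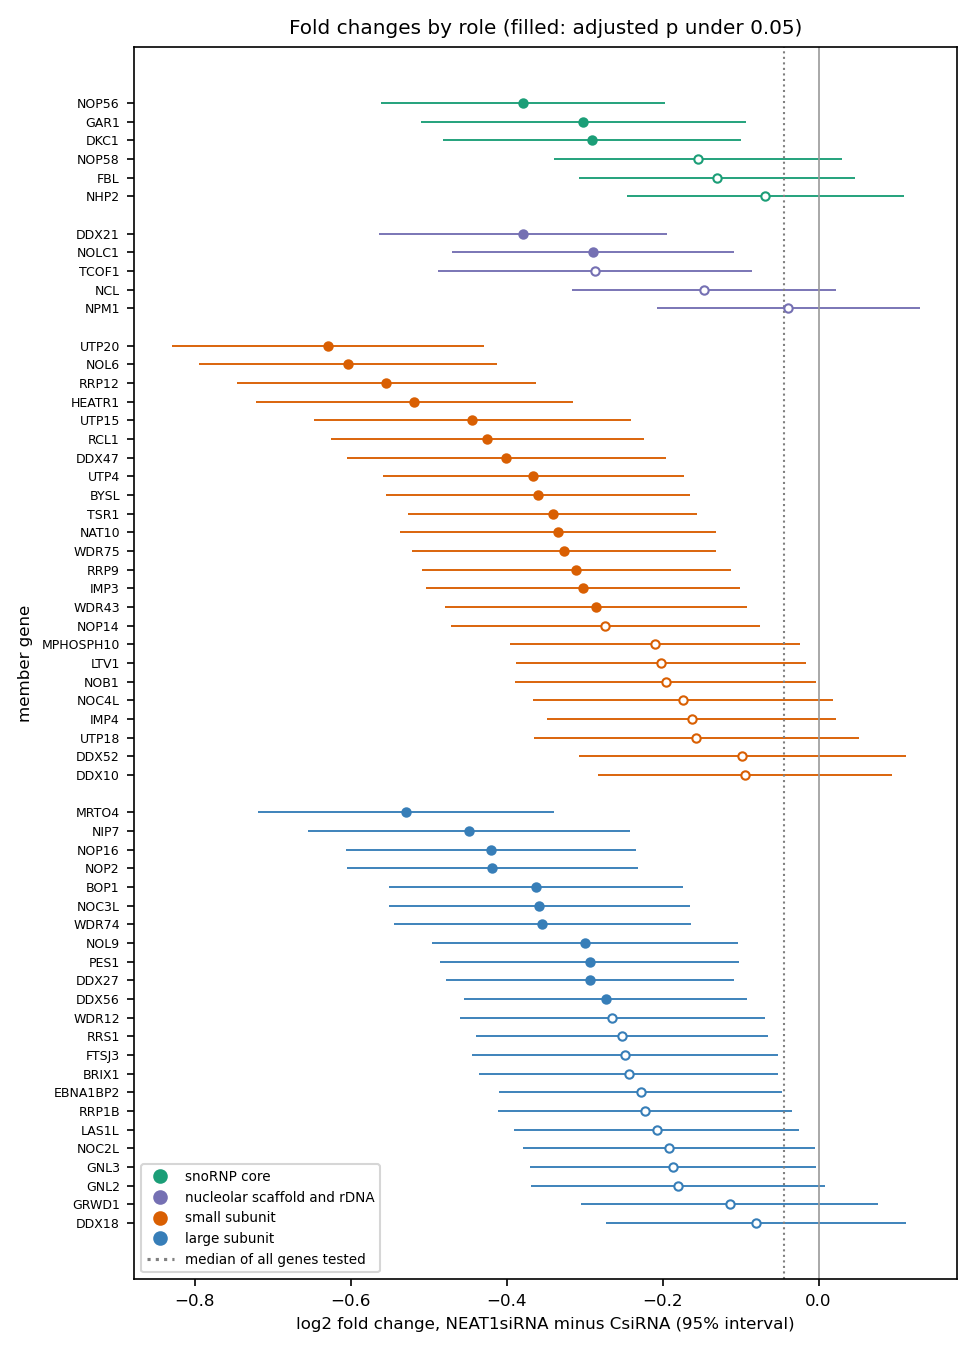
Log2 fold change (NEAT1siRNA minus CsiRNA, x axis) of the 58 tested factors (y axis), with 95% intervals from limma, grouped and coloured by role; filled points were called at an adjusted p under 0.05, and the dotted line is the median of all genes tested. All points lie left of 0, from -0.63 for UTP20 to -0.039 for NPM1.

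The snoRNP core proteins split between called and uncalled genes within each class. Of 6 genes 3 were called lower, where 8.98% of all genes tested were called lower. In the box C/D class, whose particles methylate rRNA, NOP56 went from 56.2, 51.6 and 55.8 TPM to 43.7, 40.1 and 41.3 TPM (log2 fold change -0.38, limma adjusted p = 0.00471). The methyltransferase itself, FBL (fibrillarin), had 103.9, 102.2 and 94.9 TPM with CsiRNA and 95.1, 89.1 and 90.4 TPM with NEAT1siRNA, a log2 change of -0.13 at a limma adjusted p of 0.349. The FBL groups overlapped, and NOP58 had a log2 change of -0.15 at a limma adjusted p of 0.280. In the H/ACA class, whose particles convert uridine to pseudouridine, DKC1 (the pseudouridine synthase dyskerin) had a log2 change of -0.29 at a limma adjusted p of 0.0371. GAR1 had 45.3, 46.0 and 40.3 TPM with CsiRNA and 35.6, 40.6 and 30.4 TPM with NEAT1siRNA, a log2 change of -0.30 at a limma adjusted p of 0.0465. GAR1 was the only called factor whose groups overlapped, through NEAT1siRNA replicate 2. NHP2 had a log2 fold change of -0.068, with a 95% interval from -0.25 to 0.11. Called snoRNP core genes fell from 3 to 1 without CsiRNA replicate 1, without CsiRNA replicate 2, without NEAT1siRNA replicate 1 and without NEAT1siRNA replicate 3. In these fits 3.57%, 8.28%, 8.69% and 3.96% of all genes were called lower.

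Among the 5 nucleolar scaffold and rDNA-associated proteins, DDX21 and NOLC1 were called lower, where 8.98% of all genes tested were called lower. The count was 1 gene without CsiRNA replicate 1 and 0 without NEAT1siRNA replicate 3. In these fits 3.57% and 3.96% of all genes were called lower. DDX21, a helicase that acts in rRNA transcription and processing, had 123.0, 118.4 and 112.6 TPM with CsiRNA and 88.9, 99.5 and 83.6 TPM with NEAT1siRNA, a log2 change of -0.38 at a limma adjusted p of 0.00517. NOLC1, a chaperone of snoRNPs, went from 75.9, 70.6 and 72.3 TPM to 60.3, 62.6 and 55.8 TPM (log2 fold change -0.29, limma adjusted p = 0.0290). TCOF1 (treacle), which works with NOLC1 at rDNA, had a log2 change of -0.29, and its adjusted p of 0.0501 lay just outside the threshold. NCL (nucleolin) had 260.6, 251.7 and 260.5 TPM with CsiRNA and 243.2, 234.9 and 220.4 TPM with NEAT1siRNA. Its silenced values all lay below the controls, as for 19.3% of all genes tested, but it was not called (log2 fold change -0.15, limma adjusted p = 0.258). NPM1 (nucleophosmin) had 807.8, 817.2 and 750.3 TPM with CsiRNA and 726.7, 846.6 and 742.5 TPM with NEAT1siRNA. The NPM1 groups overlapped, and its log2 fold change of -0.039 had a 95% interval from -0.21 to 0.13 and turned to 0.018 with each library centred on its median. NPM1 has many processed pseudogenes that can share its reads, so its level is uncertain.

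Levels of the factors spanned a wide range. On the TPM scale, the 4 highest were NPM1, NCL, NHP2 and EBNA1BP2, with means over the 6 libraries of 782, 245, 135 and 115 TPM. The 4 lowest of the tested factors were DDX52, NOC4L, FTSJ3 and MPHOSPH10, with 3.15, 6.42, 11.6 and 11.7 TPM. The means of FTSJ3 and MPHOSPH10 differed from each other, and from those of NOP14 (11.8 TPM), NAT10 (12.04 TPM) and RRP12 (12.1 TPM), by less than the spread over libraries, so that neither their order nor which of these genes belong to the lowest 4 is decided. Of the 10 most highly expressed tested factors 2 were called lower (NOLC1 and DDX21), their median being -0.17 (log2), and of the 10 lowest 5 were called, with a median of -0.29. Between these, 24 of 38 were called, with a median of -0.30, where 8.98% of all genes tested were called lower. Without CsiRNA replicate 1 the counts of the highest, middle and lowest factors were 1, 9 and 2, and without NEAT1siRNA replicate 3 they were 0, 12 and 2. Those fits called 3.57% and 3.96% of all genes lower. The count of the highest was 1 without CsiRNA replicate 2 and 4 without NEAT1siRNA replicate 2, where 8.28% and 14.8% of all genes were called lower. Across the 58 factors the fold change and the mean TPM had a Spearman rho of 0.18, and across all 10721 genes 0.011; the points share the same 6 libraries and the values are descriptions. Mean recovered reads of a tested factor ran from 208 for NOC4L to 29275 for NPM1, with a median of 1428.

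**Figure D4:**
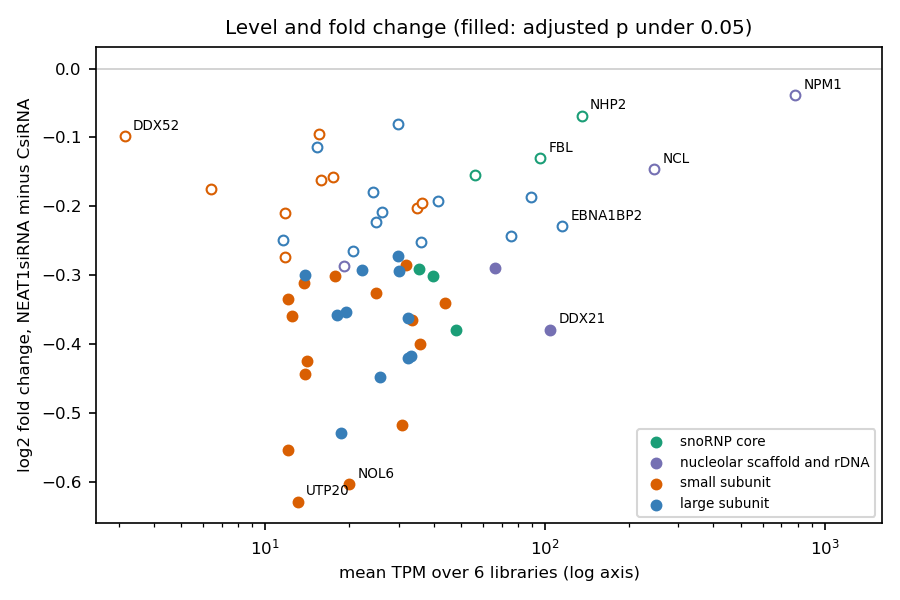
Log2 fold change (NEAT1siRNA minus CsiRNA, y axis) of the 58 tested factors against their mean TPM over the 6 libraries (x axis, log scale), coloured by role; filled points were called at an adjusted p under 0.05. Of the 10 most highly expressed factors, 2 are filled, and NPM1 lies at 782 TPM and -0.039.

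Transcript length and GC content were compared with the fold changes because some libraries moved with GC. The median canonical transcript of the factors had 2420 bases and 48.8% GC, against 3347 bases and 47.3% over all genes tested. The Spearman rho of the fold change with length was -0.17 across the 58 factors and -0.072 across all genes, and with GC it was -0.046 and -0.087. With a trend on both removed from each library, 43 factors were called lower and 0 higher, at a median log2 value of -0.23 and 16.3% of all genes called lower.

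Other genes of the pathway were taken from separate lists, also chosen with earlier results of these data known. Of 15 genes of the RNA polymerase I machinery 14 were tested, of which 7 were called lower and 0 higher, with a median log2 fold change of -0.28. Those with the lowest adjusted p were CD3EAP (POLR1G, a polymerase I subunit), which went from 17.7, 17.0 and 18.9 TPM to 13.4, 10.7 and 11.8 TPM (log2 fold change -0.55, limma adjusted p = 0.000357), TAF1D (-0.49, adjusted p = 0.00444) and POLR1A (-0.43, adjusted p = 0.00492), the largest subunit. POLR1D went from 29.4, 29.5 and 30.0 TPM up to 32.9, 34.1 and 31.8 TPM (log2 fold change 0.15) and was not called. With median centring, with voom and with GC and length trends removed, 1 gene of this list was called higher. Of 68 further assembly factors, all tested, 22 (32.4%) were called lower and 0 higher, with a median of -0.22. With GC and length trends removed 46 of them were called lower and 1 higher, where 16.3% of all genes were called lower. MDN1, the giant ATPase that remodels the large subunit, went from 8.48, 5.26 and 5.88 TPM to 3.84, 3.28 and 3.19 TPM, a log2 fold change of -0.74 (adjusted p = 0.000117 from limma), with CsiRNA replicate 1 well above the other controls. URB1 and PDCD11 followed with log2 fold changes of -0.56 and -0.55. Of 14 genes of the RNA exosome, which trims the precursor, 3 (21.4%) were called lower, against 8.98% of all genes tested. These were EXOSC2, EXOSC10 and EXOSC4, with log2 fold changes of -0.36, -0.31 and -0.27, and the list had a median of -0.19.
The proteins of the finished cytoplasmic ribosome had smaller values. Of 79 genes 78 were tested, 2 were called lower (RPL36A and RPL27) and 0 higher, the median log2 fold change being -0.058, and the silenced values lay below the controls for 3.85% of them, against 8.98% called lower and 19.3% not overlapping among all genes tested. With GC and length trends removed 2 were called lower and 3 higher, and with quantile normalization 5 lower and 2 higher. RPL36A had under 2 TPM in each library. The difference between this list and the assembly factors was not tested. Counts of these lists also changed with single libraries. The polymerase I genes alone had 7 called lower, but 1 without CsiRNA replicate 1 and 3 without NEAT1siRNA replicate 3. The polymerase I and further assembly factors together had 29 genes called lower, but 10 without CsiRNA replicate 1, 13 without NEAT1siRNA replicate 3 and 50 without NEAT1siRNA replicate 2. In these fits 3.57%, 3.96% and 14.8% of all genes were called lower. Of the exosome genes 0 were called without CsiRNA replicate 1 or without NEAT1siRNA replicate 3, 1 without CsiRNA replicate 2 and 7 without NEAT1siRNA replicate 2. Without CsiRNA replicate 2 the share of all genes called lower was 8.28%. With GC and length trends removed 9 exosome genes were called lower, where 16.3% of all genes were. Of the cytoplasmic ribosomal proteins 8 were called lower without CsiRNA replicate 3, where 9.32% of all genes were, and 1 without CsiRNA replicate 1.

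**Figure D5:**
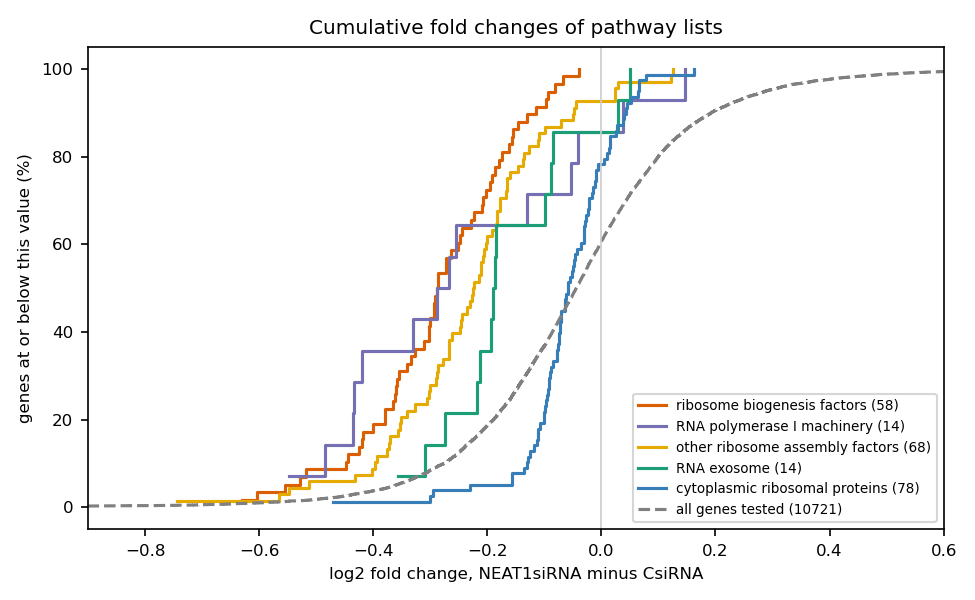
Percentage of genes (y axis) at or below a given log2 fold change (NEAT1siRNA minus CsiRNA, x axis) for the ribosome biogenesis factors (58 tested), 4 other lists and all 10721 genes tested. The factors have a median of -0.29 and lie wholly below 0, and the cytoplasmic ribosomal proteins have a median of -0.058, near that of all genes at -0.044.

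MYC itself went from 38.6, 36.3 and 35.3 TPM with CsiRNA to 27.2, 28.1 and 25.9 TPM with NEAT1siRNA, a log2 change of -0.43 with a standard error of 0.089 and a limma adjusted p of 0.00197. The study examined a MYC target signature in these libraries, so its direction is not independent evidence here. Of the 60 factors, 24 are in a hand-written version of that signature, and 23 of these were tested. Of the 23, 14 were called lower (median -0.29 on the log2 scale), where 8.98% of all genes tested were called lower. Of the 35 tested factors outside the signature, 17 were called lower with a median of -0.27. These counts were 8 and 4 without CsiRNA replicate 1, 9 and 5 without NEAT1siRNA replicate 3, 12 and 10 without CsiRNA replicate 2. When genes of any TPM were tested, they were 6 and 2. In these fits 3.57%, 3.96%, 8.28% and 1.42% of all genes were called lower. The 32 tested genes of the signature that are not on the list of 60 had a median of -0.13, with 9 called lower (MYC, MYBBP1A and TFB2M among them). Of the tested factors with an E-box in the window 12 of 19 were called lower, with a median of -0.31, and of those without one 16 of 29, with a median of -0.29. The difference was not tested. These counts were 5 and 6 without CsiRNA replicate 1, 5 and 7 without NEAT1siRNA replicate 3, and 10 and 9 without CsiRNA replicate 2.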

How the data were processed

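RNA-seq was performed on BT-549 cells with CsiRNA (3 libraries) and NEAT1siRNA (3 libraries). Per the study's methods, total RNA from triplicate cultures went through a stranded mRNA kit and STAR aligned the reads to GRCh38. The authors deposited TPM per gene and library, and a comparison table whose mean normalized count (a signal pooled over the libraries) was used only to recover whole reads. The fold changes, standard errors, test statistics and p-values in that table were not used. The counting tool and gene lengths are not given in the sources used here. Of the recovered values above 0 in each gene and library, 99.8% were whole within 0.05 for genes whose mean was below 5. For genes with a mean above 500 the share was 22.4%. The median tested factor, with 1428 mean recovered reads, falls in this last class, so its recovered reads are approximate.

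The 60 members and all lists were chosen with earlier results of these data known, and subcomplexes were put together after the values were seen. Genes with a mean of at least 1 TPM were tested on log2(TPM + 1) with limma 3.58.1 (R 4.3.3; lmFit, then eBayes with a trend, two-sided), with Benjamini-Hochberg adjustment over 10721 genes. A fold change on this scale understates changes of low genes. Named genes were NEAT1, MYC, the members called (values by library for at most 25), the 4 highest and 4 lowest tested members by level, members not tested and up to 3 called genes of each other list; further members that were not called were named after their values were seen, to complete each role. An exact permutation test of 3 against 3 libraries cannot go below p = 0.1, so none was used. Gene positions came from GENCODE on GRCh38 and start windows from RefSeq. The 17 alternatives changed the pseudocount, filter, scaling, trend, libraries, replicate block or test (voom on recovered reads), or removed trends on GC and length. The scripts were tested on simulated data.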

Additional observations from a re-analysis of the deposited data

Results flagged for a closer look

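Some nucleolar RNAs that take part in ribosome biogenesis were outside the comparisons, because the TPM table gave no tested value for them while the comparison table held a mean normalized count, which is the authors' mean over all 6 libraries and has no spread or group. That mean was 91517 for RMRP, the RNA of an endonuclease that cuts precursor rRNA. It was 2621.8 for SNORD3A, 213.57 for SNORD3D and 16.364 for SNORD3C, copies of the U3 RNA that share sequence, so that reads between them are uncertain. It was 226.51 for SNORD13 and 13.674 for SNORD14A. No difference between groups was computed for these RNAs. Groups of 3 libraries are too small for a check for single outlying samples.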

How the results depend on the processing

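Of the 58 tested factors, 0 were called higher under all 17 alternatives, and the median of the factors ran from -0.31 to -0.23. The factors called lower (31) were 8 with no filter on TPM, where 1.42% of all genes were called lower. With 1 library left out they were 12 to 36. The 12 came without CsiRNA replicate 1 (3.57% of all genes called lower) and the 36 without NEAT1siRNA replicate 2 (14.8%). All genes called (1498) were 505 with no filter, 2467 with voom on recovered reads, 3434 with GC and length trends removed, 3318 with these and the replicate block, and 759 to 2083 with 1 library left out. Other pathway genes called lower (29) were 8, 55 and 52 with no filter, with the GC and length trends removed and with the block added, and 10 to 50 with 1 library left out. The fits behind these counts called 1.42%, 16.3%, 15.5%, 3.57% and 14.8% of all genes lower. NPM1 turned positive under quantile normalization (0.0076), median centring (0.018), without NEAT1siRNA replicate 1 (0.0031) and with voom (0.016). The cause was not tested. NOL6, UTP20, RRP12, MRTO4, NOP16, NOP2 and NOP56 were called under each alternative, and 24 other called factors lost the call under at least 1. Scaling moved the split of all genes from 963 lower and 535 higher to 1109 and 1082 with quantile normalization, 954 and 1158 with median centring, and 1174 and 918 without the 4 short RNAs. Whether libraries with the same replicate number were paired is not stated in the labels. Relative to their group means, same-numbered libraries correlated at -0.030, 0.25 and -0.11. These values cannot decide the question, because the libraries also moved with GC. With the replicate block 35 factors, 33 other pathway genes and 1640 genes in all were called. PPAN and PWP2 were left out by the filter on TPM.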

Other observations

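Of 77 tested genes for mitochondrial ribosomal proteins, which form the separate ribosome of mitochondria, 4 (5.19%) were called lower and 0 higher by limma, with 1 higher at an unadjusted p under 0.05 and a median log2 fold change of -0.064. Among all genes tested 8.98% were called lower and the median was -0.044, and the difference from the biogenesis factors was not tested. The count called lower was 0 without CsiRNA replicate 1, 1 without NEAT1siRNA replicate 3, 9 without CsiRNA replicate 3 and 13 without NEAT1siRNA replicate 2. In these fits 3.57%, 3.96%, 9.32% and 14.8% of all genes were called lower. With GC and length trends removed 14 of the mitochondrial genes were called lower and 1 higher, where 16.3% of all genes were called lower. With quantile normalization the counts were 9 and 1. Of 7 DEAD-box helicases on the list of 60, a group put together after the values were seen, 4 were called lower (DDX21, DDX27, DDX47 and DDX56), against 8.98% of all genes tested. The count was 1 without CsiRNA replicate 1, 1 without NEAT1siRNA replicate 3, 2 without CsiRNA replicate 2 and 1 with no filter on TPM. These fits called 3.57%, 3.96%, 8.28% and 1.42% of all genes lower. The 95% interval of the fold change, unadjusted, lay below 0 for 14 of the 27 factors that were not called (51.9%) and for 990 of the 9223 genes not called among all genes tested (10.7%).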
